A study of Homo sapiens with 6 samples.

Results

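The genes described here are the interferon receptor chains IFNAR1, IFNAR2, IFNGR1, IFNGR2, IFNLR1 and IL10RB and the Janus kinases JAK1, JAK2 and TYK2. They were chosen by gene symbol, and 9 of the 60671 genes in the deposited table carry one of these symbols. RNA was sequenced in bulk from HaCaT cells, an immortalised human keratinocyte line that the labels give as wild type. In 1 group the cells were kept for 24 h in serum-free high-glucose medium to which interferon beta (IFN-beta, 160 ng/mL) was added (n = 3 libraries), and in the other they were kept as long in the same medium without it (n = 3 libraries). Whether the 3 replicates were separate cultures is not in the labels, and p-values cover only the spread between libraries, possibly a technical one. The series' design text speaks of mouse skin, while all 60671 identifiers in the table are human.

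Interferons signal through pairs of receptor chains, each of which carries a kinase of the JAK family. IFNAR1, which carries TYK2, and IFNAR2, which carries JAK1, form the receptor of the type I interferons, to which IFN-beta belongs. IFNGR1 with JAK1 and IFNGR2 with JAK2 form the receptor of interferon gamma. IFNLR1 with JAK1 and IL10RB with TYK2 form the receptor of the interferons lambda, which act mainly on epithelial cells, keratinocytes among them. When the ligand joins the chains, the kinases phosphorylate each other, the receptor tails and the STAT proteins, which carry the signal to the nucleus.

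The read totals recovered from the FPKM steps lay between 25832158 and 30594527 per library. Reads summed over genes made up 99.8% of each total, so the totals need not be all the reads sequenced. The 8 keratinocyte markers checked, KRT5, KRT14 and TP63 among them, all had a mean of at least 0.5 FPKM (fragments scaled to gene length and library depth), and summed to between 3590 and 3910 FPKM per library. Marker sums for fibroblasts, melanocytes, leukocytes and endothelial cells lay between 0.696 and 4.79 FPKM, with DCN, MLANA, TYR, LYZ and CLDN5 at 0 in every library. The keratinocyte sum hides changes of single markers, since KRT5 was called lower (mean FPKM -29.8%) and TP63 higher (32.3%). The fibroblast sum was higher with IFN-beta (2.55 to 3.25 FPKM, control 1.73 to 2.44 FPKM), where COL1A1 was called higher, and the melanocyte sum was lower (3.34 to 3.91 FPKM, control 4.14 to 4.69 FPKM), where MITF was called lower. The leukocyte sums overlapped, with ITGAM called higher. The endothelial sum was higher with IFN-beta (2.12 to 2.22 FPKM) than in control (0.696 to 0.964 FPKM). Most of it was CDH5, at 0.731 ± 0.0847 FPKM in control and 1.97 ± 0.101 FPKM with IFN-beta, while PECAM1 had at most 1 read in any library. The part of such transcripts in the results was not tested. All 12 interferon-stimulated genes listed as a check of the treatment rose, among them MX1, with a log2 change of 7.07. Over all genes, 3419 of 15163 tested genes, or 22.5%, were called higher with IFN-beta and 3012, or 19.9%, lower. The balance depended on the scaling, with 4070 higher and 2369 lower calls once all libraries were rescaled to 1 sum, and with 2741 higher and 3893 lower calls on quantile-normalized values.

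Of the receptor and kinase genes that could be tested, 6 were higher with IFN-beta, and by small amounts. A gene entered the test where its mean over the 6 libraries was at least 0.5 FPKM, which 8 of the 9 genes did, and was called at an adjusted p of 0.05. IFNAR2, IFNGR1, IFNGR2, IFNLR1, JAK1 and JAK2 rose, 6 of the 8 tested, where 22.5% of all tested genes were called higher and 42.4% in either direction. The number of members called higher was 3 after quantile normalization, 4 with no filter on level, and 4 to 5 when single libraries were left out. No member was called lower by limma, and 0 were lower at an unadjusted p under 0.05 or by limma voom on reads. The 2 groups of libraries did not overlap in the same 6 genes, against 54% of all tested genes in either direction and 28.6% higher with IFN-beta. The log2 changes of the 8 ran from -0.03 to 0.46 with a median of 0.29, where the median of all tested genes was 0.01 and that of all genes called higher was 0.40. In bulk RNA a change in the number of cells that express a gene and a change per cell cannot be told apart.

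**Figure D1:**
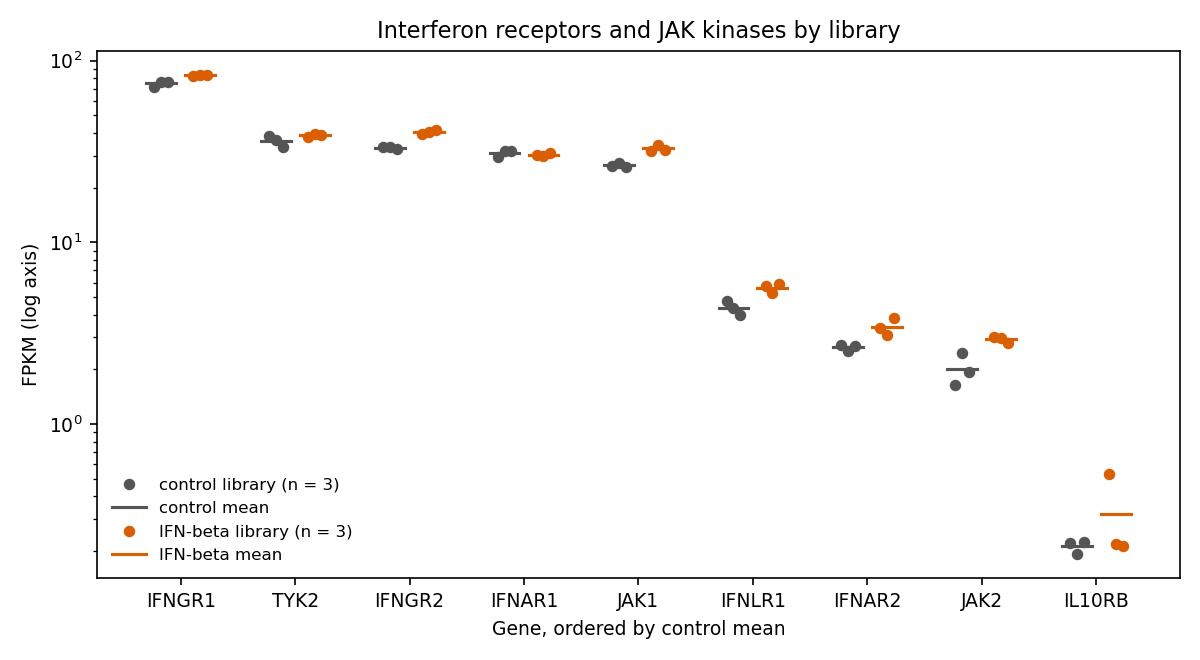
FPKM on a log axis for each of the 9 genes, with 1 point per library (grey for control, orange for IFN-beta, n = 3 each) and a line at each group's mean. The levels span from about 0.2 FPKM for IL10RB to over 70 FPKM for IFNGR1, and the 2 groups overlap in IFNAR1, TYK2 and IL10RB.

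Of the receptor that IFN-beta binds, IFNAR2 was called higher and IFNAR1 did not pass, and the log2 ratio of the chains could not reach an exact permutation p under 0.1. IFNAR1 stood at 29.4, 31.8 and 31.8 FPKM in control replicates 1 to 3 and at 30.4, 29.8 and 30.9 FPKM with IFN-beta. The groups overlapped, and the change of -0.03 ± 0.047 (SE) on the log2(FPKM + 0.5) scale did not pass (limma adjusted p = 0.659). Its 95% interval ran from -0.14 to 0.08. On values rescaled to 1 sum its sign turned, to a log2 change of 0.017. IFNAR1 lies on chr21:33324429-33359864 and had between 1437 and 1733 reads per library, which alone gives a counting error of 2.40% to 2.64%.

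IFNAR2, whose long intracellular tail docks STAT2, was lower in level and rose. It stood at 2.71, 2.53 and 2.69 FPKM in control and at 3.36, 3.10 and 3.85 FPKM with IFN-beta, so every treated library lay above every control library. The log2 change was 0.32 ± 0.10 (95% interval 0.09 to 0.55, limma adjusted p = 0.0308), from 118 to 200 reads per library. The call was close to the threshold. Leaving out control 1, 2 or 3 took the limma adjusted p to 0.0558, 0.0891 and 0.0504, leaving out treated library 1 or 3 took it to 0.0671 and 0.109, and dropping the filter on level took it to 0.0867. Quantile-normalized values gave a log2 change of 0.21 that did not pass (limma adjusted p = 0.125).

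IFNAR2 (chr21:33229901-33265675) shares much of its sequence with other annotated genes. In GENCODE release 29, 44.2% of its exonic bases are shared on the same strand with AP000295.1, a protein-coding entry that joins exons of IFNAR2 and IL10RB. A further gene, IL10RB-DT, covers 39.1% of the exonic bases of IFNAR2 on the opposite strand. AP000295.1 was listed at 0 in every library, and IL10RB-DT had between 3 and 14 reads. How reads in shared exons were counted is not given in the sources used here, so the level of IFNAR2 is uncertain.

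The chains of the interferon gamma receptor were the most abundant receptor genes and both rose. IFNGR1, the ligand-binding chain on chr6:137197485-137219449, stood at 71.7, 76.6 and 76.5 FPKM in control and at 82.6, 83.1 and 83.6 FPKM with IFN-beta. The treated libraries lay above the control libraries, and the log2 change was 0.15 ± 0.039 (limma adjusted p = 0.0145). Quantile-normalized values gave a log2 change of 0.10 that did not pass (limma adjusted p = 0.0601), and leaving out treated library 2 narrowly ended the call (0.0502). IFNGR2, the signalling chain on chr21:33403413-33479348, stood at 33.3, 33.4 and 32.7 FPKM in control and at 39.4, 40.4 and 41.5 FPKM with IFN-beta. Its log2 change of 0.28 ± 0.040 (limma adjusted p = 0.000596) was called in every alternative run. TMEM50B, which shares 12.8% of the exonic bases of IFNGR2 on the opposite strand, stood at 17.1 FPKM in control and 16.7 FPKM with IFN-beta (limma adjusted p = 0.696).

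Of the interferon lambda receptor, IFNLR1 rose. This chain gives the receptor its ligand specificity and lies on chr1:24154168-24187959. It stood at 4.73, 4.34 and 3.96 FPKM in control and at 5.75, 5.27 and 5.88 FPKM with IFN-beta, with no overlap between the groups. The log2 change was 0.34 ± 0.088 (limma adjusted p = 0.0128), from 187 to 329 reads per library, and it was called in every alternative run. IL22RA1, the interleukin 22 receptor chain of the same family, lies 11.0 kb from IFNLR1 and rose as well, from 0.918 ± 0.168 to 2.64 ± 0.249 FPKM (SD, n = 3 per group; log2 change 1.15 ± 0.133).

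IL10RB, the chain that interferon lambda shares with interleukins 10, 22 and 26, was near the limit of detection. It was listed at 0.220, 0.193 and 0.224 FPKM in control and at 0.529, 0.218 and 0.213 FPKM with IFN-beta, from 9, 8 and 8 and from 22, 8 and 9 reads. The higher value was that of IFN-beta replicate 1 alone, and the other 5 libraries lay together. IL10RB was below the level set for the test, and with no filter on level its log2 change of 0.18 did not pass (limma adjusted p = 0.524). It lies on chr21:33266367-33310187, and 38.1% of its exonic bases are shared with AP000295.1, so this level is uncertain too. Of the exonic bases of AP000295.1 itself, 54.1% lie in exons of IFNAR2 and 45.9% in exons of IL10RB.

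Among the kinases, JAK1 and JAK2 rose. JAK1, which serves all 3 interferon receptors, stood at 26.3, 27.5 and 25.8 FPKM in control and at 32.0, 34.4 and 32.4 FPKM with IFN-beta. The groups were well apart, and the log2 change of 0.31 ± 0.048 (limma adjusted p = 0.00104) was called in every alternative run. JAK1 lies on chr1:64833229-65067754 and had between 2413 and 3583 reads per library.

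JAK2, the kinase carried by IFNGR2, was the lowest of the 3 kinases and had the largest change of the 8 tested members. It stood at 1.64, 2.46 and 1.95 FPKM in control and at 3.03, 2.99 and 2.80 FPKM with IFN-beta. The control libraries were spread more widely than the treated ones, but none of them reached the treated values. The log2 change was 0.46 ± 0.131 (95% interval 0.17 to 0.76, limma adjusted p = 0.0195), from 130 to 245 reads per library. Of the 3419 genes called higher, 1415, or 41.4%, had a larger log2 change than JAK2. Leaving out control 1 gave a log2 change of 0.35 that did not pass (limma adjusted p = 0.0563), below the 0.40 of IFNLR1 in that fit. Leaving out treated library 1 or 2 also ended the call (limma adjusted p = 0.0599 and 0.0561). So did dropping the filter on level (0.0733) and quantile normalization (0.0541). JAK2 lies on chr9:4984390-5129948.

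TYK2, the kinase carried by IFNAR1 and IL10RB, stood at 38.6, 36.4 and 33.3 FPKM in control and at 38.1, 39.7 and 39.2 FPKM with IFN-beta. Control replicate 1 lay within the range of the treated libraries, and the log2 change of 0.11 ± 0.056 did not pass (95% interval -0.02 to 0.24, limma adjusted p = 0.145). With control 1 left out it passed, at a log2 change of 0.16 (limma adjusted p = 0.0385). TYK2 lies on chr19:10350529-10380572. The fourth kinase of the family, JAK3, which is mainly a kinase of lymphoid cells, had between 2 and 10 reads per library and was not tested.

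**Figure D2:**
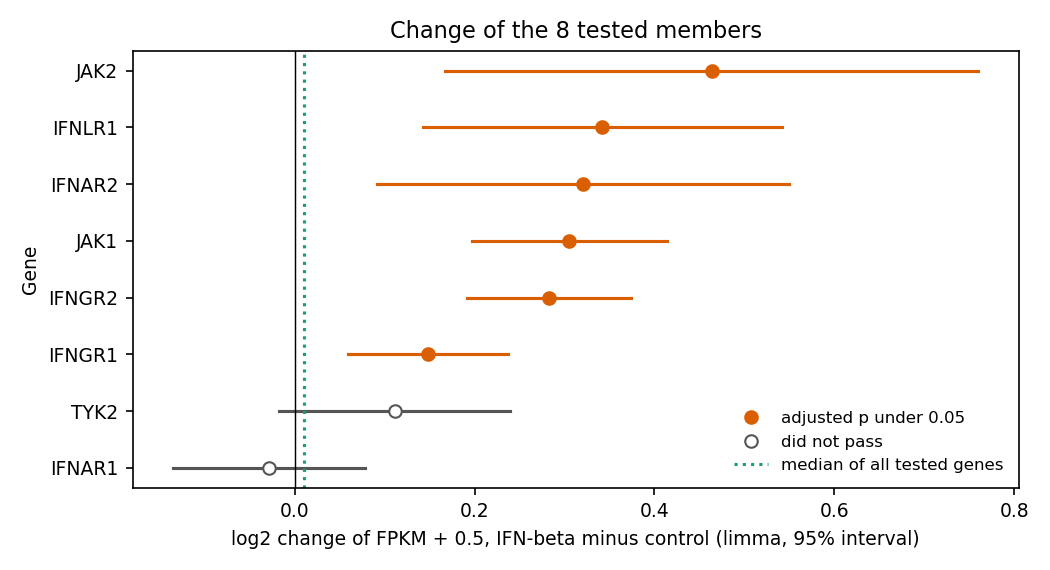
Change between groups for the 8 tested genes as the limma log2 change of FPKM + 0.5 (points) with its 95% interval (lines), filled where the adjusted p was under 0.05, and the median of all tested genes as a dotted line. The 6 filled intervals lie to the right of 0, from IFNGR1 at 0.15 to JAK2 at 0.46, and those of TYK2 and IFNAR1 include 0.

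The order of the 9 levels depended on the gene length behind the FPKM. In control libraries the deposited values gave, from high to low, IFNGR1, TYK2, IFNGR2, IFNAR1, JAK1, IFNLR1, IFNAR2, JAK2 and IL10RB. Among neighbours in that order only TYK2 and IFNGR2 overlapped between libraries. With IFN-beta IFNGR2 and JAK1 each stood 1 place higher, above TYK2 and IFNAR1, and TYK2 and IFNGR2 overlapped again.

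The lengths that turn the FPKM back into whole reads were short for several of these genes. That of TYK2 was 1188 bases, where the mean over its 21 GENCODE transcripts, many of them fragments, is 1193 bases and the longest has 4347. That of IFNAR1 was 1817 bases against a longest transcript of 6139, and that of JAK1 3620 against 5047. Per kilobase of longest transcript, JAK1 stood at 19.0 ± 0.616 and TYK2 at 9.86 ± 0.729 reads, scaled to library depth as FPKM are, in control, the reverse of the deposited 26.5 ± 0.859 and 36.1 ± 2.67 FPKM. IFNAR1 then stood at 9.17 ± 0.412, and overlapped with TYK2. IFNGR1 stayed highest and IL10RB lowest under all 3 lengths tried, in both groups.

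**Figure D3:**
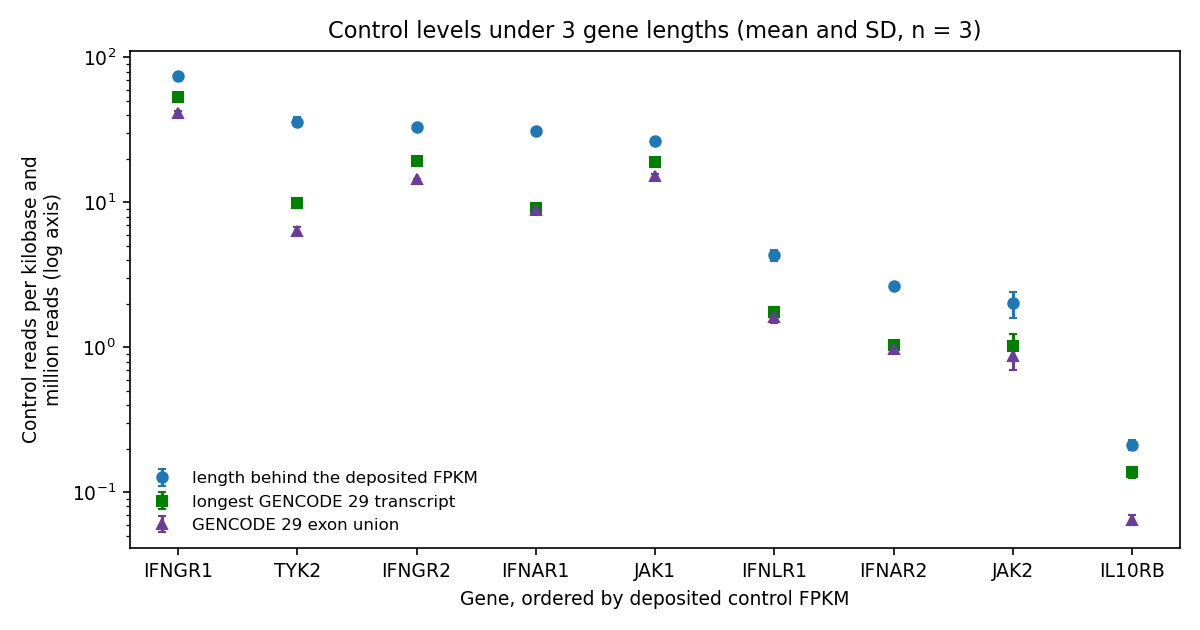
Control level of each gene on a log axis in reads scaled to length and library depth (mean and SD, n = 3) under the length behind the deposited FPKM (circles), the longest GENCODE 29 transcript (squares) and the union of its GENCODE 29 exons (triangles). TYK2 drops from 36.1 with the deposited length to 9.86 with the longest transcript, below JAK1 at 19.0.

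The makeup of the receptors and of the kinase pool was compared within each library. IFNAR2 stood at 0.0922, 0.0797 and 0.0846 of the FPKM of IFNAR1 in control and at 0.111, 0.104 and 0.124 with IFN-beta. The groups did not overlap, and the log2 ratio differed by 0.40 (exact permutation test, two-sided, p = 0.1, or 0.15 adjusted over the 3 ratios; no smaller p is possible with 3 libraries a group). IFNGR2 stood at 0.464, 0.436 and 0.428 of the FPKM of IFNGR1 in control and at 0.477, 0.487 and 0.496 with IFN-beta, again without overlap (log2 difference 0.14, exact permutation p = 0.1). The ratio of IFNLR1 to IL10RB ranged from 10.9 to 27.6 in the treated libraries, since it rested on 8 to 22 reads of IL10RB, and overlapped between the groups (exact permutation p = 1). The uncertainty of IFNAR2 and IL10RB levels carries over to their ratios.

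JAK2 made up 2.46%, 3.71% and 3.19% of the summed FPKM of JAK1, JAK2 and TYK2 in control and 4.14%, 3.87% and 3.77% with IFN-beta. The share of TYK2 was 55.8% ± 1.92 in control and 52.1% ± 0.608 with IFN-beta, and that of JAK1 41.1% ± 1.41 and 44.0% ± 0.587 (SD, n = 3 each). None of the 3 shares overlapped between groups, with an exact permutation p of 0.1 each, the smallest possible. As parts of the same sum the 3 shares are not independent. With 0.5 added to each FPKM the exact permutation p of the JAK2 share was 0.2. Per longest transcript the share of TYK2 was 33.0% in control and 29.8% with IFN-beta, and that of JAK1 63.6% and 66.0%. With that length the JAK2 shares, 3.42% and 4.18%, overlapped between the groups.

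**Figure D4:**
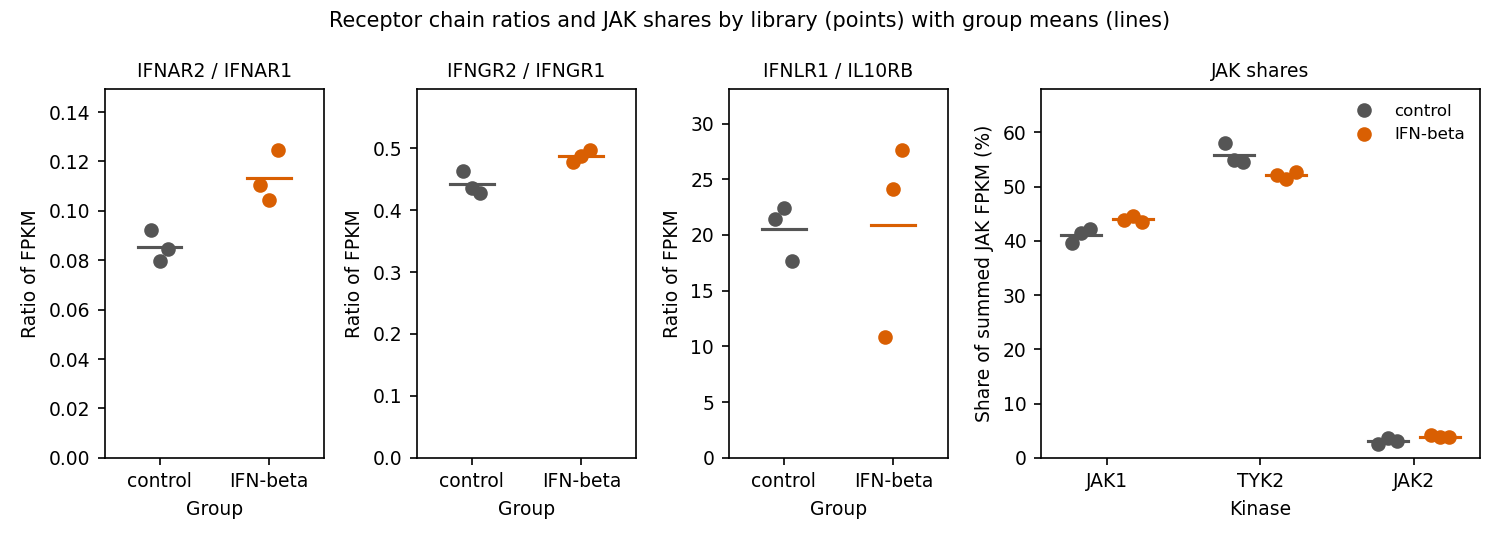
Ratio of FPKM between the chains of each receptor (left, linear axes from 0) and share of each kinase in the summed FPKM of JAK1, TYK2 and JAK2 in percent (right), with 1 point per library and a line at each group's mean (n = 3). The IFNAR2 to IFNAR1 ratio lies at 0.0797 to 0.0922 in control and 0.104 to 0.124 with IFN-beta, while the IFNLR1 to IL10RB ratio overlaps between groups.

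Of the 9 genes, 4 lie side by side on chromosome 21, in the order IFNAR2, IL10RB, IFNAR1 and IFNGR2, within 249 kb. Along this stretch IFNAR2 and IFNGR2 rose while IFNAR1 between them did not pass. The 2 other tested genes within 50 kb, TMEM50B and GART, had log2 changes of -0.03 and 0.03 and did not pass. Around all 9 genes, 13 different genes within 50 kb were tested, members included, and 4 were called higher (IFNAR2 and IFNGR2 among them) and 1 lower, near the 42.4% called among all tested genes.

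Promoter windows from RefSeq (GRCh38.p14, from 250 bases before to 50 bases after a start site) were available for 8 of the 9 genes, 15 windows in all, and IFNAR2 had no match by symbol. They were searched on both strands for the core of the interferon-stimulated response element, to which STAT2-containing complexes bind (GAAANNGAA), and for the gamma-activated site, to which STAT dimers bind (TTCNNNGAA). The response element core was in none of the 15 windows and in 8.11% of all 35116 windows. The gamma-activated site was in the windows of IFNLR1 and IL10RB and in 7.66% of all windows, and both matches also held the stricter core TTCCNGGAA, found in 1.15% of all windows. A match is a run of letters and not a measured binding site. The IFNLR1 match lies before the RefSeq start site but within the deposited coordinates of the gene, chr1:24154168-24187959. The IFNLR1 stretch on chr1:24187420-24187539 (minus strand, match from position -238 relative to the start site), the first 30 transcribed bases of IL10RB on chr21:33266367-33266396 (plus strand, match from position 12) and, as an example with the response element, a stretch of the strongly induced gene IFIT1 on chr10:89392493-89392552 (plus strand) are printed with the matches in capitals.

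IFNLR1: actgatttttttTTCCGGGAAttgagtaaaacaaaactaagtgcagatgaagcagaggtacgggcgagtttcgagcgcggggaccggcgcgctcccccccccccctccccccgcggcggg

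IL10RB: atctccgctggTTCCCGGAAgccgccgcgg

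IFIT1: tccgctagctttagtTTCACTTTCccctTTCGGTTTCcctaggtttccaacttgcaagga

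The IFIT1 stretch carries 2 reverse-strand copies of the core close together. IFIT1, with a log2 change of 5.35, is a picked example. Whether matches go with the size of a change was not tested. The share of G and C in the windows of the receptor and kinase genes ran from 41.7% to 80%. Its median was 65.7% against 58.7% over all windows, and 10 of the 15 windows lay at or above the latter. Their median ratio of observed to expected CpG was 0.80 against 0.58.

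Most of the signal transducers downstream were called higher. Of the 8 genes for STAT factors and their partner IRF9, 7 rose, with a list median of 1.29. Among all tested genes, 22.5% were called higher. STAT2 had a log2 change of 2.49 ± 0.055, STAT5A of 2.07, IRF9 of 1.82, STAT4 of 0.76, STAT3 of 0.43 and STAT6 of 0.24. STAT5B, at 38.4 ± 3.24 FPKM in control and 35.7 ± 0.279 FPKM with IFN-beta, did not pass, but was called lower with control 3 left out (log2 change -0.17, limma adjusted p = 0.00814). STAT4 and STAT5A were at or below 1 FPKM in control, where adding 0.5 FPKM shrinks the log2 change.

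Of 18 tested genes that restrain the receptors and kinases, 5 rose, 2 fell and 11 did not pass, with a median of -0.02. That is near the 22.5% higher and 19.9% lower of all tested genes. USP18, which binds IFNAR2 and keeps JAK1 from it, went from 5.50 ± 0.0517 to 119 ± 5.19 FPKM (log2 change 4.32 ± 0.047). SOCS1, a direct inhibitor of JAK kinases, had a log2 change of 1.22, the JAK2-binding adaptor SH2B3 one of 0.82, SOCS3 one of 0.73 and SOCS2 one of 0.19. For SOCS2, leaving out treated library 1 or 3 raised the limma adjusted p to 0.0564 and 0.0594, and quantile normalization raised it to 0.0501. PIAS3, an inhibitor of STAT3, and the phosphatase PTPN11 fell, by 0.34 and 0.20 on the log2 scale. The phosphatases PTPN1 (0.08) and PTPN2 (-0.10), which remove phosphate from JAKs, did not pass.

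Of 15 tested genes whose products act on the receptors' traffic and scaffolding, 3 were called higher and 3 lower, with a median of 0.04. These counts too were near the 22.5% and 19.9% of all tested genes. The kinase PRKD2, which promotes the removal of IFNAR1 from the surface, went from 32.6 ± 3.14 to 60.2 ± 3.53 FPKM (log2 change 0.88 ± 0.073). IRS1, a docking protein, rose by 0.72 and the casein kinase CSNK1A1 by 0.16. RACK1, a scaffold that binds IFNAR2, fell by 0.23, and the ubiquitin ligase subunits SKP1 and BTRC by 0.17 and 0.16. BTRC was no longer called when any 1 of the 6 libraries was left out, with limma adjusted p between 0.0614 and 0.134, when the filter was dropped (0.0615) or when libraries were rescaled to 1 sum (log2 change -0.12, limma adjusted p = 0.132). Leaving out control 1 raised the number called higher to 5, with CBL and HGS added, 2 genes named after their values were seen.

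Other class II cytokine receptor chains, the family to which the interferon receptor chains belong, rose in 4 of the 4 tested genes, with a median of 0.66. Besides IL22RA1 these were F3, the tissue factor of blood clotting (187 ± 15.3 to 361 ± 12.7 FPKM, log2 change 0.95 ± 0.059), IL20RA (0.36) and IL20RB (0.34). IL10RA, the partner of IL10RB in the interleukin 10 receptor, had at most 1 read in any library, and IL22RA2 was listed at 0. Of 27 receptor chains outside this family that use JAK1, JAK2 or TYK2, 12 were tested, 6 rose and 2 fell, with a median of 0.26. The background for both lists is the 22.5% called higher and 19.9% called lower among all tested genes. The chains outside the family that rose were IL7R (0.62), IL15RA (0.59), OSMR (0.39), IL27RA (0.29), IL6ST (0.28) and IL4R (0.25). IL13RA1 fell by 0.19 and the leptin receptor LEPR by 0.49. IL27RA lost its call when control 1 or 3 or treated library 1 or 3 was left out, with limma adjusted p between 0.0711 and 0.10, and when the filter was dropped (0.0757) or values were quantile-normalized (0.128). LEPR lost its call when control 2 or 3 or treated library 1 or 3 was left out, with limma adjusted p between 0.0524 and 0.0727, and when the filter was dropped (0.0830).

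**Figure D5:**
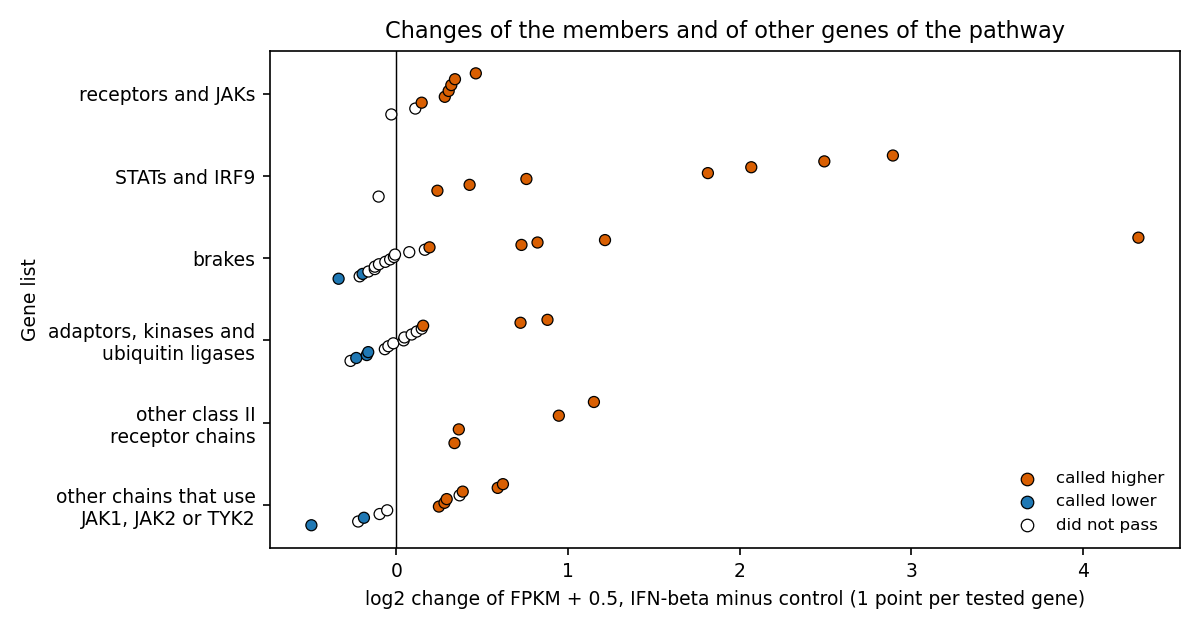
Limma log2 change of each tested gene (1 point per gene, spread vertically only for legibility) among the receptor and kinase genes and 5 fixed lists of the pathway, orange where called higher, blue where called lower and white where not passed. The receptors and kinases lie between -0.03 and 0.46, while STAT2 stands at 2.49 and USP18 at 4.32.

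Transcripts of the ligands themselves were scarce. Of 22 interferon genes 16 were at 0 in every library and 1, IFNE, was tested, with a log2 change of 0.01 (limma adjusted p = 0.981). IFNK, an interferon made by keratinocytes, had 0 reads in each control library and 11, 7 and 3 reads with IFN-beta, where 3 reads correspond to between 0.0860 and 0.102 FPKM. It was called higher only with no filter on level (limma adjusted p = 0.0325). IFNB1 had 0 reads in control and 2, 0 and 1 reads with IFN-beta.

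All 9 receptor and kinase genes carry the JAK-STAT signaling term of KEGG in the deposited table. Of 89 tested genes with that term, members included, 45 were called higher and 5 lower, with a median log2 change of 0.19. Of all tested genes, 22.5% were called higher and 19.9% lower. Across the 6 libraries, the tested genes whose log2 values followed those of JAK2 most closely were SCAP (Pearson r = 0.993), CEP120 (0.990) and KIFAP3 (0.990). Their log2 changes of 0.07, 0.13 and 0.10 did not pass, and the libraries share the group difference, so these values are a description.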

How the data were processed

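The authors deposited 1 table of FPKM values for the 6 libraries, with Ensembl identifiers, symbols, coordinates and pathway terms, and all of its value columns were used. Per the labels' protocols, RNA came from both an RNeasy kit and TRIzol, in different fields, and CLC Genomics Workbench 11.0.1 is listed without a step. The submitters' processing notes name GRCm38 and mm10, both of mouse. The identifiers are human, and 76.9% of those also in GENCODE release 29 (GRCh38) had the same coordinates there, so the build of the printed coordinates is inferred. No aligner, counting rule or strand setting is given in the sources used here.

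Whole reads were recovered from the FPKM steps: for each library a whole total and for each gene a whole length (the GENCODE exon union where it worked, otherwise the smallest) that made its 6 values whole within 0.01 reads, or within the rounding of the table. This held for 100% of the 30507 genes above 0. Where a gene has few reads, its true count may be some multiple of that recovered. Without molecular identifiers, counting errors (1 over the square root of the reads) and the floor of 3 reads cover counting error only.

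Tests on log2(FPKM + 0.5) used limma 3.58.1 under R 4.3.3 (two-sided, eBayes with trend) on the 15163 genes of a mean of at least 0.5 FPKM, with Benjamini-Hochberg adjustment over all of them, called at 0.05. Such log2 changes understate those of low genes. Ratios and shares had exact permutation tests over libraries. Alternatives were pseudocounts of 0.1 and 1, no filter, a mean of at least 2 FPKM, rescaling to the same sum, quantile normalization, a replicate block, eBayes without trend, limma voom on recovered reads, each library left out and other motif letters. Other gene lengths were added after seeing the data. The genes and lists were chosen with earlier results of these data known. Named are all 9 genes, up to 6 called and up to 3 other genes of each list, genes that share their exons and the 3 most like JAK2. Some genes covered by this rule are not reported here, and GART and the ligands with few reads were named after their values were seen. RAVER2, which shares 0.063% of the exonic bases of JAK1, had a log2 change of -0.04. Protein sequences were not used here. Tables and figures used Python 3.11.15, pandas 2.3.3, numpy 2.4.6 and matplotlib 3.10.9.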

Additional observations from a re-analysis of the deposited data

How the results depend on the processing

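IFNGR2, IFNLR1 and JAK1 kept their direction and call in all 15 alternatives to the limma fit. After quantile normalization 3 of the 9 genes were called higher in place of 6, with log2 changes of 0.21 for IFNAR2, 0.10 for IFNGR1 and 0.35 for JAK2, which did not pass. With no filter on level, where 30507 genes were tested and the fit was made anew, IFNAR2 (0.32) and JAK2 (0.46) did not pass. With all libraries rescaled to 1 sum IFNAR1 turned to 0.017. When single libraries were left out, 4 to 5 of the genes were called higher, and log2 changes ran from 0.25 to 0.38 for IFNAR2, 0.12 to 0.16 for IFNGR1, 0.35 to 0.59 for JAK2 and 0.055 to 0.16 for TYK2. The log2 difference of the IFNLR1 to IL10RB ratio, -0.08, turned to 0.16 with 0.5 added to each FPKM, and leaving out each library gave values between -0.33 and 0.34, with 0.34 without IFN-beta replicate 1. Among the lists, the number called lower ran from 0 to 1 for STATs and IRF9 and from 1 to 2 for other chains that use these kinases, and the number called higher from 3 to 5 for adaptors, kinases and ubiquitin ligases. The number of other chains called lower was also 1 with no filter. At a mean of at least 2 FPKM it was 1 too, where LEPR was no longer tested. With no filter 1 ligand, IFNK, was called higher. The cause of the other shifts was not tested. With the replicate number as a block the 6 genes were called again (JAK2 log2 change 0.46, limma adjusted p = 0.0294; IFNAR2 0.32, limma adjusted p = 0.0481), and 3082 genes were higher and 2735 lower. The block ended the calls of BTRC and IL27RA among the listed genes (limma adjusted p = 0.0996 and 0.0668). Deviations of same-numbered libraries correlated with r of -0.05, -0.10 and -0.06, so no strong effect shared by replicate number was seen. Whether the libraries were paired by design is not in the labels. These correlations cannot tell, since a weak shared effect could go unseen. In a paired sign-flip test of ratios and shares the smallest exact p is 0.25. The 8 to 22 reads of IL10RB give a counting error of 21.3% to 35.4%.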
